A study of Mus musculus with 10 samples.

Results

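DN2b cells, the first T-committed stage among the CD4-CD8- double-negative precursors, were compared with the cells that grew from the same kind of progenitor without Notch ligand, the no Notch control. Libraries were chosen by the differentiation label alone: 2 libraries labelled DN2b and 4 labelled IgG, together 6 of the 10 libraries of the study, were set against each other, and no measured value entered the choice. RNA-seq libraries were made from mouse LSK cells (bone marrow cells that lack lineage markers and carry SCA1 and KIT) after culture in a medium with the cytokines SCF, FLT-3 ligand, IL-6 and IL-11. Both groups started from C57BL/6J mice. DN2b cells came from cultures on a high density of Delta1ext-IgG, the immobilized extracellular part of the Notch ligand Delta1, to which IL-7 had been added from day 14, and were sorted as KIT+CD44loCD25+. The control cells grew on immobilized human IgG1, carry WT in their labels and were harvested at day 14. The other 4 libraries, DN1 and DN2a cells grown on the same ligand, served here to estimate the spread between replicates and, for DN1, as a second reference.

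Notch receptors are cut when they bind a ligand on a neighbouring cell, and the freed intracellular domain joins the DNA-binding protein RBPJ to switch on genes such as *Hes1*. In the thymus this signal steers incoming progenitors away from other blood lineages. Without it, marrow progenitors in cytokines such as SCF and IL-6 mostly become granulocytes, monocytes and macrophages, whose granule proteins, scavenger receptors and lysosomal enzymes set them apart from T cell precursors.

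Ligand, IL-7, time in culture (DN2b cells were harvested after the day 14 addition of IL-7), the sort and the dates in the labels (12-12-12 and 6-12-13 for DN2b, none for the control) all changed together with the group, and their parts cannot be told apart. No sort was described for the control cells. Labels of the control libraries end in D1, D2, R1 or R2, letters that the sources used here leave without explanation. In bulk RNA, fewer cells of a type and less RNA per cell cannot be told apart either. The study's methods describe the replicates of a stage as coming from independent LSK isolates, and the labels do not tie a library to an isolate or an animal. Reads counted on genes numbered 15373952 and 12354635 in DN2b and from 20638406 to 35367925 in the control, and 3 counts, taken as the detection floor, corresponded to between 0.0881 and 0.239 CPM (reads scaled to a TMM-adjusted library size). Pearson's r of log2 CPM across genes, which are not independent replicates, was 0.950 between the DN2b libraries, between 0.920 and 0.975 among the control libraries and between 0.655 and 0.717 across the groups.

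Defining markers were checked against both labels. The 9 markers of DN2b cells summed to 4210.5 and 5536.5 CPM in DN2b and to between 405.9 and 626.1 CPM in the control. Of these, 7 were higher in DN2b and 1, *Cd44*, was lower. *Il2ra*, *Kit* and *Cd44* are among the 9 and encode antigens of the sort, so their part in these sums is no finding. *Cd44*, at 332 to 588 CPM, made up most of the control sum. The 6 neutrophil markers summed to at most 1.27 CPM in DN2b and to between 14355 and 49487 CPM in the control, and the 5 macrophage markers to at most 40.8 CPM in DN2b and to between 1363.7 and 4744.4 CPM in the control. *Elane*, *Ngp*, *Msr1* and *C1qa* were at 0 counts in both DN2b libraries. Markers of B cells (at most 4.54 CPM), NK cells (at most 9) and dendritic cells (at most 61.6) stayed low in all 6 libraries, while those of mast cells and basophils summed to between 260.2 and 461.3 CPM in DN2b and to between 34.0 and 175.5 CPM in the control. *Cpa3* alone, at 257 and 454 CPM, made up most of the DN2b sum, and of the 5 mast cell and basophil markers 1 was higher and 3 were lower. Erythroid and megakaryocyte markers summed to between 19.6 and 27.5 CPM in DN2b and to between 229 and 950.3 CPM in the control. *Pf4*, at 5207 to 32269 counts in the control libraries, made up most of the control sum. It had 3 and 0 counts in DN2b, so the DN2b sum came mainly from the other markers. Of the 4 tested, 1 was lower and none was higher.

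The DN2b libraries differed from each other. After adding 0.5 CPM to each value, 1300 genes were at least 2-fold higher in the second than in the first and 265 the other way. Of these, 186 genes were at least 10-fold higher in the second DN2b library (labelled 6-12-13) than in the first, against 1 gene the other way. After these values were seen, lists of collagen and matrix, endothelial, and muscle genes were drawn up, of which 12, 9 and 7 members were among the 186. Of 12 collagen and matrix genes, fibronectin (*Fn1*) had 1.07 and 41.8 CPM in DN2b and between 153 and 423 CPM in the control, and the other 11 summed to 6.07 and 415 CPM in DN2b and to between 3.05 and 11.0 CPM in the control. These 11 also differed between the DN1 libraries, at 6.64 CPM in the first and 110 CPM in the second, but were at 21.4 and 26.3 CPM in the DN2a libraries, whose label dates are those of DN2b. The 12 endothelial genes, of which 10 were tested, summed to 67.5 and 233 CPM in DN2b and to between 107 and 181 CPM in the control. The 10 muscle genes, of which 8 were tested, summed to 1.27 and 165 CPM in DN2b and to between 8.67 and 20.7 CPM in the control. Of these lists, 8, 4 and 5 members were called higher in DN2b with all libraries, and 0, 0 and 1 (*Ckm*, muscle creatine kinase) without the second DN2b library. *Col4a1*, a basement membrane collagen, had 0.934 and 123 CPM in DN2b and a log2FC of 7.20 (adjusted p = 0.0101), which became 1.14 (adjusted p = 0.623, edgeR's quasi-likelihood test) without that library. Of the 2435 genes called higher in DN2b, 63 were among the 186. The part of these transcripts in other results was not tested, and values without each DN2b library are given for named genes that lost a call and for the lists whose counts moved most. Genes called without the first DN2b library numbered 1318 higher and 1380 lower, and without the second 1661 and 1835. With either single DN2b library no gene kept a call in the opposite direction, and 992 genes called higher and 1234 called lower held in both fits.

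Across the whole contrast, 12221 genes were tested in 1 fit of all 10 libraries (edgeR's quasi-likelihood test, Benjamini-Hochberg adjustment over all genes, threshold 0.05). DN2b and the no Notch control differed in 5190 of them (42.5%), with 2435 higher in DN2b (19.9%) and 2755 lower (22.5%). The median log2FC (DN2b minus control) was -0.05 over all genes tested, 1.42 over genes called higher and -2.42 over genes called lower. A fitted log2FC of 5 or more was reached by 326 genes called higher in DN2b, and a fitted log2FC of -5 or less by 682 called lower. In 252 of the genes called lower, both DN2b libraries had 0 counts, and in 35 of those called higher all 4 control libraries had 0. For these genes the fitted value depends on the prior count and is no bound. The 252 and the 35 are not alike, since the 2 DN2b libraries had fewer reads than any of the 4 control libraries. The remaining 7031 genes were not called. For 2105 of these the 95% interval of the log2FC lay between -1 and 1, so that a change of 2-fold or more in either direction was outside the interval, and for 4926 the interval was wider and the data left the size of any change undetermined. With the 15 genes that were called although their interval stayed within 2-fold, 2120 genes (17.3%) had such an interval, and 1109 and 915 had one without the first and the second DN2b library. The 2 DN2b values lay wholly above or below the 4 control values for 7214 genes (59%), of which 5100 were called.

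**Figure D1:**
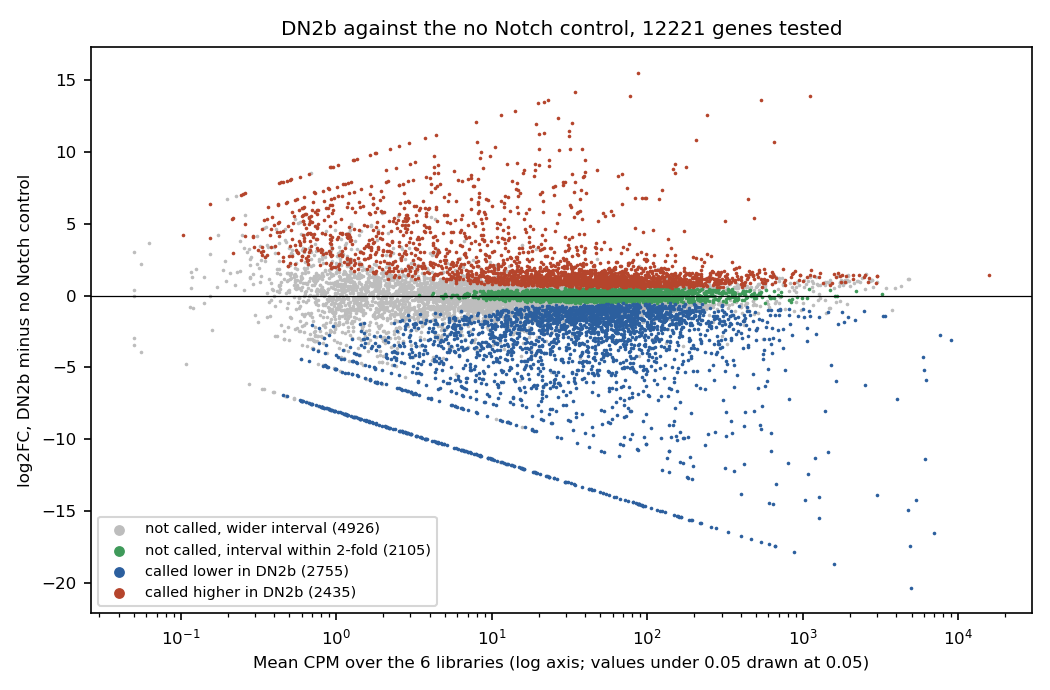
Each point is 1 of the 12221 genes tested, with its mean CPM over the 6 libraries (log axis) against its log2FC of DN2b minus no Notch control, coloured by call or by an interval within 2-fold. The 682 genes called at a log2FC of -5 or less extend further from 0 than the 326 at 5 or more. Points on the sloping lines at the lower edge have 0 counts in both DN2b libraries, where the fitted value depends on the prior count and is no bound.

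Genes of the Notch pathway came first, since the ligand separates the cultures. Of 11 tested receptors, cofactors and targets, 6 were higher and 2 lower in DN2b, with a median log2FC of 4.40. *Hes1*, a repressor that Notch induces in many tissues, had 45.1 and 66.6 CPM in DN2b and between 0.056 and 0.305 CPM in the control (log2FC 8.33, SE 0.51, adjusted p = 1.74e-05). *Dtx1*, the E3 ligase Deltex, had 97.6 and 72.6 CPM in DN2b against at most 0.675 CPM (log2FC 7.70). *Nrarp*, a feedback inhibitor of Notch, had 91.0 and 65.9 CPM against 0.28, 3.97, 0.264 and 1.59 CPM (log2FC 5.69). For these 3 genes every DN2b value was at least 16 times the highest control value. Receptors differed in direction. *Notch3* was higher (12.5 and 7.33 CPM against at most 0.507, log2FC 5.94). *Notch2* was lower (16 and 19.9 CPM against 90.4 to 163, log2FC -2.89, adjusted p = 0.000169). *Notch1* was not called (104 and 92.5 CPM against 45.6 to 94.1, adjusted p = 0.16). *Rbpj*, with a log2FC of -0.60, and *Myc*, with 0.50, were not called, and their intervals reached beyond 2-fold. The hairy family members *Hey1* (log2FC 4.40) and *Heyl* were also higher, while *Maml1*, which encodes the coactivator Mastermind, was lower (10.1 and 12.9 CPM against 30.4 to 44.0, log2FC -1.77). *Hey1* lost its call without the second DN2b library (adjusted p = 0.0782).

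Transcription factors of the T lineage were next. Of 19 tested, 12 were higher and 1 was lower. *Tcf7*, which encodes TCF1 and is an early target of Notch, had 550 and 502 CPM in DN2b and 0.392, 1.89, 0.47 and 1.40 CPM in the control (log2FC 8.97, SE 0.57, adjusted p = 1.87e-05). *Gata3*, needed for T cell specification, had 30.8 and 55.9 CPM against at most 0.231 CPM (log2FC 7.82), and *Bcl11b*, whose onset marks T commitment, had 25.9 and 19.4 CPM against at most 0.231 CPM (log2FC 7.63). *Tox* was higher by a log2FC of 8.08, from 2 control libraries at 0 and 2 at 0.176 CPM or less to 15.1 and 21.2 CPM. *Satb1*, *Sox4* and *Bach2* were higher by 2.32, 3.18 and 2.94. The E protein *Tcf12* and the zinc finger genes *Patz1* and *Ikzf2* were higher by between 1.58 and 2.05. *Runx1* (82.0 and 77.9 CPM against 58.8 to 83.0, log2FC 0.27) and *Ikzf1*, which encodes Ikaros (250 and 251 CPM against 169 to 307, log2FC 0.18), had intervals within 2-fold. *Zbtb7b*, which encodes ThPOK, a factor known for directing CD4 T cells at a later stage, was the member called lower (0.267 and 1.20 CPM against 77.6 to 124, log2FC -7.13). *Ikzf2* lost its call without the second DN2b library (adjusted p = 0.0528).

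Of 30 tested CD3 chains and signalling proteins around the T cell receptor, 21 were higher and 3 lower, with a median log2FC of 5.38. *Cd3e* had 94.8 and 111 CPM in DN2b and 0 counts in all 4 control libraries, at least 614-fold higher when the control is set at its floor. *Cd3g* had 2020 and 1224 CPM against 0.0587 to 0.183 CPM (log2FC 13.63, SE 0.65, adjusted p = 1.01e-05), and *Cd3d* 335 and 571 CPM against 0.183 to 2 CPM (log2FC 9.17). These 3 genes lie side by side on chromosome 9 (GRCm38). *Cd247*, the zeta chain, had 61.2 and 51.9 CPM against at most 0.294 CPM (log2FC 8.76). Of the kinases, *Lck* (606 and 294 CPM against at most 2.35, log2FC 8.50), *Txk* (9.04) and *Prkcq* (6.04) were far higher, and *Fyn* was higher by 1.94. *Zap70*, the kinase recruited by phosphorylated CD3 and zeta chains, was at 3.07 and 3.90 CPM in DN2b and at 3 counts or fewer in each control library, a ratio of 91.7 with a 95% counting interval from 34.7 to 344. Adaptors followed, with *Lat* higher by 5.78, *Trat1* by a ratio of 5186 (counting interval 1434 to 42849) over 2 counts in the 4 control libraries together, and *Grap2* by 5.01. Other members did not share this direction. *Lcp2* was not called (log2FC 0.41), *Bcl10* and *Nfatc1* stayed within 2-fold, and *Vav1* (log2FC -1.14), *Malt1* (-0.83) and *Ubash3b* (-3.57) were lower. *Vav1* and *Malt1* lost their calls without either DN2b library (adjusted p from 0.0608 to 0.197). *Malt1* also lost its call without control library R1 or R2 (adjusted p from 0.0569 to 0.084).

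The promoters of *Il2ra* and *Cd3e* are printed because both genes were at 2.08 CPM or less in every control library and high in DN2b, and because both encode proteins that the T lineage uses and the myeloid lineages of the control do not. The windows run from 250 bases before to 50 after a RefSeq start (GRCm38.p6), 5′ to 3′ on the gene's strand. They were searched on both strands for 5 motifs. TGGGAA, known from RBPJ sites, occurs in 25.6% of all RefSeq windows of this length, and AGATAA, known from sites of GATA3 and its relatives, in 11.2%. TGTGGT, the letters of RUNX sites, occurs in 16.8%, GAGGAA, read by PU.1 and other ETS factors, in 28.3%, and TTGCNNAA, the form of C/EBP sites, in 10.8%. Capitals mark a match, which is a description of the letters and no evidence of binding. The *Il2ra* window (chr2:11642542-11642841, plus strand) held none of the letters, and the *Cd3e* window (chr9:45009562-45009861, minus strand) held TGGGAA once and TTCCTC, the reverse complement of GAGGAA, once.
Il2ra: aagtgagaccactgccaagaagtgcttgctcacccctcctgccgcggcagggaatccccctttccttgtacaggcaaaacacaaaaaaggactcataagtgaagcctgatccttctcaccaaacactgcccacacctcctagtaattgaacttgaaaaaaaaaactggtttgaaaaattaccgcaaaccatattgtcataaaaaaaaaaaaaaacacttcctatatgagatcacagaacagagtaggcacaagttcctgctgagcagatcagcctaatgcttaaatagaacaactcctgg
Cd3e: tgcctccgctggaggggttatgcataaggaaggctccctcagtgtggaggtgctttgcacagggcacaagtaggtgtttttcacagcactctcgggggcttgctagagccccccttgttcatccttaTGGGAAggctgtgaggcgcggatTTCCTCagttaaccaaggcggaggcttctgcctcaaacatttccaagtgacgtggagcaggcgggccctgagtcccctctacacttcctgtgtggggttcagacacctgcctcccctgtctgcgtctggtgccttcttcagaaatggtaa

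Of 19 tested T-lineage and costimulatory surface proteins, 13 were higher, 1 was lower and 5 were not called. *Thy1* had 495 and 382 CPM in DN2b and 0.112, 3.41, 0.147 and 0.366 CPM in the control (log2FC 8.80, adjusted p = 0.000495), *Cd7* 77.3 and 163 CPM against 0.58 to 1.32 CPM (log2FC 7.15), and *Cd27*, a TNF receptor of lymphocytes, 80.2 and 69.0 CPM against 1.34 to 3.21 CPM (log2FC 5.07). *Ctla4*, an inhibitory receptor of activated T cells, was at 236 and 231 CPM in DN2b and at 1 count in the 4 control libraries together, a ratio of 24855 (counting interval 4459 to 981871). *Cd160* (132 and 106 CPM against at most 0.275) and *Ly6d* (53.8 and 33.7 CPM against at most 0.168) were higher by log2FC 9.44 and 9.24. *Cd28* was not called (23 and 38.5 CPM against 26.4 to 69.2). *Cd4*, *Cd8a* and *Cd8b1*, the coreceptors of later stages, were too low to test, with at most 8 counts in either DN2b library. All 8 tested Gimap genes, GTPases of the immunity-associated family that affect lymphocyte survival, were higher, with a median log2FC of 7.80, or 6.70 with the 2 genes absent from the control (*Gimap3* and *Gimap7*) at their bounds. They lie in 1 cluster on chromosome 6. *Gimap7* had 21.0 and 47.9 CPM against 0 in all 4 control libraries, at least 205-fold higher, and *Gimap4* 18.3 and 141 CPM against 1 count in the 4 together (ratio 7901, counting interval 1417 to 312239). *Gimap9* and *Gimap1* had 1.44 to 9.55 and 0.504 to 2.08 CPM in the control, and were higher by 5.19 and 6.70. Every Gimap gene was higher in the second DN2b library than in the first, and all 8 were called without either library. Reads of similar family members can be split between them, so single Gimap values are uncertain.

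**Figure D2:**
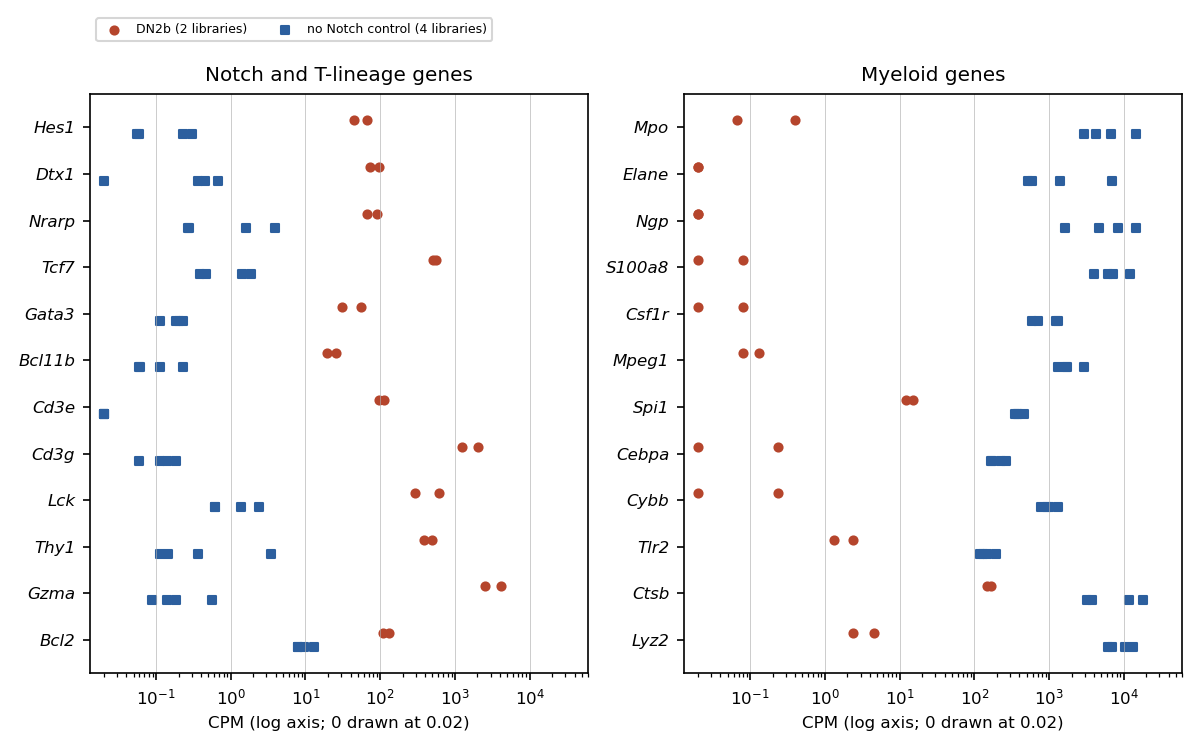
CPM of 24 named genes on a log axis in each library, DN2b (2 points) and no Notch control (4 points), with values at 0 drawn at the left edge. The 12 T-lineage and Notch genes lie to the right in DN2b and the 12 myeloid genes to the right in the control, with no overlap between groups in any of them.

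Of 12 tested V(D)J recombination genes, 8 were higher and 1 lower. *Rag1*, *Rag2* and *Dntt*, which are specific to lymphocytes, had 35.6 and 8.28, 13.7 and 3.42, and 59.9 and 79.1 CPM in DN2b, and none exceeded 0.28 CPM in a control library (log2FC 8.19, 6.60 and 9.40). Of the repair proteins that join the cut ends, *Xrcc5* (Ku80) was higher by 4.29, *Xrcc6* (Ku70) by 2.85, *Lig4* by 2.04 and *Prkdc* by 1.04, while *Xrcc4* and *Nhej1* were not called and *Dclre1c*, which encodes Artemis, was lower (-1.24). Among 19 genes of common gamma chain cytokine receptors and STAT5 feedback, 7 were higher and 3 lower (against 19.9% and 22.5% of all genes tested). Another 4 had intervals within 2-fold, among them *Il2rg* (the common gamma chain itself, log2FC 0.16) and *Jak3* (-0.25). The STAT5 feedback genes *Socs2* (102 and 101 CPM against 1.01 to 3, log2FC 5.78), *Cish* (54.2 and 64.0 CPM against 2.41 to 11.2, log2FC 3.33) and *Socs1* (27.1 and 47.9 CPM against 0.896 to 5.34, log2FC 3.32) were higher. *Socs3*, *Il4ra* and *Il21r* were lower, with log2FC of -1.77, -1.59 and -3.70. *Il7r* was not called: its 31.0 and 39.4 CPM in DN2b lay below all control values, which ranged from 40.0 to 306 CPM. *Il2ra*, the largest difference in the list (2176 and 1729 CPM against 0.392 to 2.08), encodes CD25, the antigen used for the sort, and is therefore no finding, and the same holds for *Kit* (130 and 176 CPM against 26.6 to 134) and *Cd44* (13.5 and 10.9 CPM against 332 to 588). *Prkdc* and *Dclre1c* lost their calls without either DN2b library (adjusted p from 0.0809 to 0.0906). *Socs3* and *Il4ra* lost their calls without the first DN2b library (adjusted p from 0.0671 to 0.218). *Il4ra* also lost its call without control library D1 or R1 (adjusted p from 0.0604 to 0.0653).

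Genes of neighbouring lymphoid lineages were mixed. *Gzma*, granzyme A, was the gene with the highest mean CPM in DN2b among those with a log2FC above 10, at 4159 and 2537 CPM in DN2b against 0.56, 0.138, 0.0881 and 0.183 CPM (log2FC 13.86, SE 0.85). *Gzmb* was at 90.4 and 111 CPM against at most 1.01 CPM (log2FC 7.21), yet *Gzmc* was not called, and perforin (*Prf1*) and the NK factors *Eomes* and *Tbx21* had at most 0.239 CPM in DN2b and were not tested. Of 14 tested NK and innate lymphoid genes, 5 were higher and 3 lower (against 19.9% and 22.5% of all genes tested). *Id2*, an inhibitor of E proteins, was lower (24.2 and 64.0 CPM against 111 to 319, log2FC -2.34), and *Zbtb16* was not called. Of the B-lineage genes, *Pax5*, *Ebf1*, *Cd79a* and *Ms4a1* were too low to test, though *Ebf1* had 56 counts in the second DN2b library and 0 in the first. The kinase *Blk* (7.54 and 40.1 CPM against 0 in all control libraries, at least 142-fold) and *Pou2af1* were higher. *Blnk* (0 and 0.319 CPM against 3.21 to 74.8) and *Cd22* were lower. Of 15 mast cell and basophil genes, 9 were lower and 2 higher. *Cpa3*, mast cell carboxypeptidase, was higher (257 and 454 CPM against 8.57 to 69.3, log2FC 3.29), as was *Il4* at a low level, whereas the basophil protease gene *Mcpt8* (0.934 and 3.11 CPM against 20.1 to 68.5, log2FC -4.01), the histidine decarboxylase gene *Hdc* (-6.12) and *Ms4a2*, the beta chain of the IgE receptor, were lower. Without the first and the second DN2b library, 3 and 4 of the 15 were lower. *Prss34* was at 0 in DN2b and at least 101-fold lower. *Blnk* lost its call without either DN2b library (adjusted p from 0.0521 to 0.111). *Cd22*, *Mcpt8* and *Ms4a2* lost their calls without the first DN2b library (adjusted p from 0.0598 to 0.131). *Il4* lost its call without the second DN2b library (adjusted p = 0.0762). *Cd22* also lost its call without control library R1 (adjusted p = 0.0533).

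Stem and progenitor genes had no single direction: 4 of 30 were higher, 10 lower and 16 not called, against 19.9% higher and 22.5% lower of all genes tested. Their median log2FC was -0.92, and -0.56 and -2.11 without the first and the second DN2b library. Without the first DN2b library 5 of the 30 were lower, and without the second 2 were higher. *Lmo2*, a bridging factor of progenitors, was lower (1.60 and 7.17 CPM against 99.0 to 128, log2FC -4.71), as were *Hoxa9* (0 and 0.478 CPM against 5.38 to 25.9, log2FC -6.12), *Mef2c* (-2.60) and *Prom1*, at 2 counts in each DN2b library against 17.9 to 53.6 CPM (ratio 277, counting interval 108 to 1017). *Mycn* (5.54 and 10.9 CPM against at most 0.415, log2FC 5.40), *Cd48* (2.82) and *Erg* (1.23) were higher. The call of *Tek*, an endothelial and stem cell receptor, came from the second DN2b library (0.267 and 16 CPM, log2FC 5.62, adjusted p = 0.00727) and was lost without it (log2FC 0.72, adjusted p = 0.678). *Lyl1* was within 2-fold, and *Flt3*, *Meis1*, *Bcl11a* and *Cd34* were not called. *Erg* lost its call without either DN2b library (adjusted p from 0.0716 to 0.111). *Hoxa9* lost its call without the first DN2b library (adjusted p = 0.0545).

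The neutrophil granule genes had the lowest median log2FC of the 50 lists. Of 34 tested, 32 were lower in DN2b and none was higher, with a median log2FC of -14.24, or -10.05 with the 17 members at 0 in DN2b set at their bounds. *Mpo*, myeloperoxidase of the primary granule, had 0.0668 and 0.398 CPM in DN2b and 2958, 14448, 4251 and 6716 CPM in the control (log2FC -14.93, SE 1.90, adjusted p = 0.000557). *Elane*, neutrophil elastase, and *Ngp*, a secondary granule protein, were at 0 counts in both DN2b libraries and at 528 to 7006 and 1654 to 14745 CPM in the control, at least 9981-fold and at least 30947-fold lower when DN2b is set at its floor. *S100a8* and *S100a9*, which together form calprotectin, had at most 3 counts in a DN2b library and between 3990 and 16689 CPM in the control, for *S100a8* a ratio of 193653 (counting interval 34757 to 7648895). Other granule and inducible genes had the same direction, and *Camp*, *Mmp8* and *Saa3* had no read in either DN2b library, which puts their bounds at 4136-fold, 4156-fold and 5490-fold lower or more. The 2 members not called were *Stfa1* and *Itgb2l*, both of which varied over 40-fold between control libraries. Stefin genes (*Stfa1*, *Stfa2*, *Stfa3*) are near-identical copies and their separate values are uncertain. The list took 0.00420% and 0.00712% of gene reads in DN2b and between 3.61% and 8.45% in the control. *Stfa2* and *Stfa3* lost their calls without either DN2b library (adjusted p from 0.0775 to 0.0951).

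The promoters of *Elane* and *Mpo* are shown as counterparts of those above, since their genes were at or near 0 in DN2b. The windows, searched in the same way, held GAGGAA in capitals, once in *Elane* (chr10:79886062-79886361, plus strand) and 2 times in *Mpo* (chr11:87793534-87793833, plus strand), and no other of the 5 motifs.
Elane: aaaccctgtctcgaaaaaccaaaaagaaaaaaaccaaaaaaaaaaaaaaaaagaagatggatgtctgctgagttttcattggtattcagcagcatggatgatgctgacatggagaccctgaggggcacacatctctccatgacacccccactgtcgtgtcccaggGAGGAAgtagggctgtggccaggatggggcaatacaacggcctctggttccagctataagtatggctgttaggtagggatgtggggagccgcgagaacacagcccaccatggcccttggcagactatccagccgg
Mpo: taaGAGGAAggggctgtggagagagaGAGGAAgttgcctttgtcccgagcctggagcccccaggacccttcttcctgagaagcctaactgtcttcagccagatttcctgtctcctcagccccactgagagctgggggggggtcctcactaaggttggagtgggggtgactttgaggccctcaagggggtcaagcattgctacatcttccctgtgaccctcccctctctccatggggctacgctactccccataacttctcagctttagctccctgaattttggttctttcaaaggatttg

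Monocyte and macrophage genes followed. Of 42 tested, 39 were lower and none was higher, with a median log2FC of -11.47 (-9.14 with 9 members at their bounds). *Csf1r*, the receptor of the macrophage growth factor M-CSF, had 0 and 1 counts in DN2b and between 591 and 1304 CPM in the control (ratio 26358, counting interval 4731 to 1041114). *Mpeg1*, which encodes the pore-forming protein perforin-2, had 2 and 1 counts against 1298 to 2950 CPM. *Spp1*, osteopontin, had 0 and 0.876 CPM against 14937, 4317, 10102 and 2598 CPM (log2FC -14.21). *Msr1*, *Trem2*, *Cd14* and *C1qc* were at 0 in DN2b and at least 1010-fold, 1622-fold, 1168-fold and 1032-fold lower. *Emr1*, which encodes the macrophage antigen F4/80, kept 7.08 and 39.9 CPM in DN2b against 212 to 1110 CPM (log2FC -4.48). *Ccr2*, *Cx3cr1* and *Axl* were not called. *Ccr2*, the receptor for the chemokine CCL2, had 9.68 and 184 CPM in DN2b, a 19-fold gap between its libraries, against 386 to 1083 CPM. *Cd5l* differed most among control libraries, from 1.11 to 2299 CPM, and was at 0 in DN2b. *Cd5l* lost its call without either DN2b library (adjusted p from 0.129 to 0.149). *Emr1* lost its call without the first DN2b library (adjusted p = 0.105). *Cd5l* also lost its call without control library R1 (adjusted p = 0.0543).

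Myeloid transcription factors were lower in 21 of 31 cases and higher in 1, with a median log2FC of -3.59 (-3.24 with 2 members at their bounds). *Spi1*, which encodes PU.1, had 15.1 and 12.3 CPM in DN2b against 347, 375, 465 and 380 CPM (log2FC -4.83, SE 0.30, adjusted p = 1.75e-05). *Cebpa*, needed for granulocyte and monocyte formation, had 0 and 3 counts in DN2b against 168 to 262 CPM, and *Cebpd* (log2FC -7.38), *Cebpb* (-5.90) and *Irf8* (-4.02) were lower as well. *Tfec* had 2 counts and 0 in DN2b against 80.8 to 121 CPM. *Cebpg* was the member called higher, by 0.65 (75.1 and 82.2 CPM against 43.1 to 56.1). The immediate early genes *Egr1*, *Fosb* and *Jun* were not called, and each was at least 8 times higher in the second DN2b library than in the first. Growth factor receptors of the myeloid lineages were lower in 9 of 13 cases: *Csf3r* had 0 and 1 counts against 145 to 256 CPM, *Csf2rb* had 2 and 1.51 CPM against 327 to 589 CPM (log2FC -8.08), and *Il6ra* was at 0 and at least 186-fold lower, although IL-6 was in the medium of both cultures. *Cebpg* lost its call without either DN2b library (adjusted p from 0.123 to 0.179). *Cebpg* also lost its call without control library D1, R1 or R2 (adjusted p from 0.0521 to 0.104).

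The machinery of phagocytes was lower across several lists. Of 21 Fc receptor and ITAM adaptor genes, 19 were lower and none higher. *Tyrobp*, which encodes the adaptor DAP12, had 12.3 and 39.0 CPM against 436 to 1186 CPM (log2FC -5.11), and *Lyn* 25.8 and 24.8 CPM against 260 to 300 CPM (-3.47). *Hcst*, the adaptor DAP10, and *Btk* were the members not called. Of 34 Toll-like receptor and inflammasome genes, 28 were lower: *Tlr2* had 1.33 and 2.39 CPM against 118 to 193 CPM (log2FC -6.31), and *Tlr13* and *Il1rn* were at 0 in DN2b and at least 1362-fold and 549-fold lower. The shared adaptor *Myd88* was lower by less (74.7 and 58.5 CPM against 158 to 206, log2FC -1.41), and *Traf6* was not called. Of 7 NADPH oxidase genes, *Cybb*, the catalytic subunit gp91phox, had 0 and 3 counts in DN2b against 774 to 1311 CPM, *Ncf1*, *Ncf4* and *Cyba* had log2FC between -4.85 and -3.03, *Rac2* was lower (-1.04) and *Rac1* stayed within 2-fold. Of 19 complement and coagulation genes, 17 were lower: *C3ar1*, the receptor of the fragment C3a, was at 0 and at least 3372-fold lower, and *F13a1*, a subunit of coagulation factor XIII, had 0.200 and 0.557 CPM against 484 to 2035 CPM (log2FC -11.66). *Rac2* lost its call without either DN2b library (adjusted p from 0.107 to 0.146). *Rac2* also lost its call without control library R1 (adjusted p = 0.0571).

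Of 52 lysosome and cathepsin genes, 39 were lower and 1 higher, with a median log2FC of -2.45. *Ctsb*, cathepsin B, had 148 and 168 CPM against 18257, 3242, 11813 and 3726 CPM (log2FC -5.87, adjusted p = 0.00111), *Psap*, prosaposin, 231 and 259 CPM against 5819 to 13271 CPM (-5.19) and *Ctsl* 36.4 and 47.0 CPM against 1459 to 15934 CPM (-7.18). *Ctsw*, a cathepsin of cytotoxic lymphocytes, was the member called higher (9.88 and 14 CPM against at most 0.112). *Glb1* was within 2-fold. Of 18 subunits of the vacuolar ATPase, the lysosomal proton pump, 11 were lower, led by *Atp6v0d2* (0.267 and 0.319 CPM against 26.2 to 849) and *Atp6v0a1* (log2FC -5.15), and 6 without the first DN2b library. Of 21 MHC class II and dendritic cell genes, 13 were lower and 1, *H2-Oa*, was higher, with a median log2FC of -4.17 (-3.13 with 3 members at their bounds). *H2-Aa* had 2.34 and 4.22 CPM against 13.1, 511, 39.4 and 19.3 CPM (log2FC -5.48, adjusted p = 0.0387) and *Cd74*, the invariant chain, 4.27 and 12.0 CPM against 40.7 to 878 CPM (-5.24), so that control library D2 held most of both. Without the first and the second DN2b library, 5 and 7 members of the list were lower. *H2-Aa* and *Cd74* lost their calls without either DN2b library (adjusted p from 0.0716 to 0.187). *Atp6v0a1* lost its call without the first DN2b library (adjusted p = 0.0534). *H2-Oa* lost its call without the second DN2b library (adjusted p = 0.138). *H2-Oa* also lost its call without control library R1 or R2 (adjusted p from 0.0523 to 0.056).

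**Figure D3:**
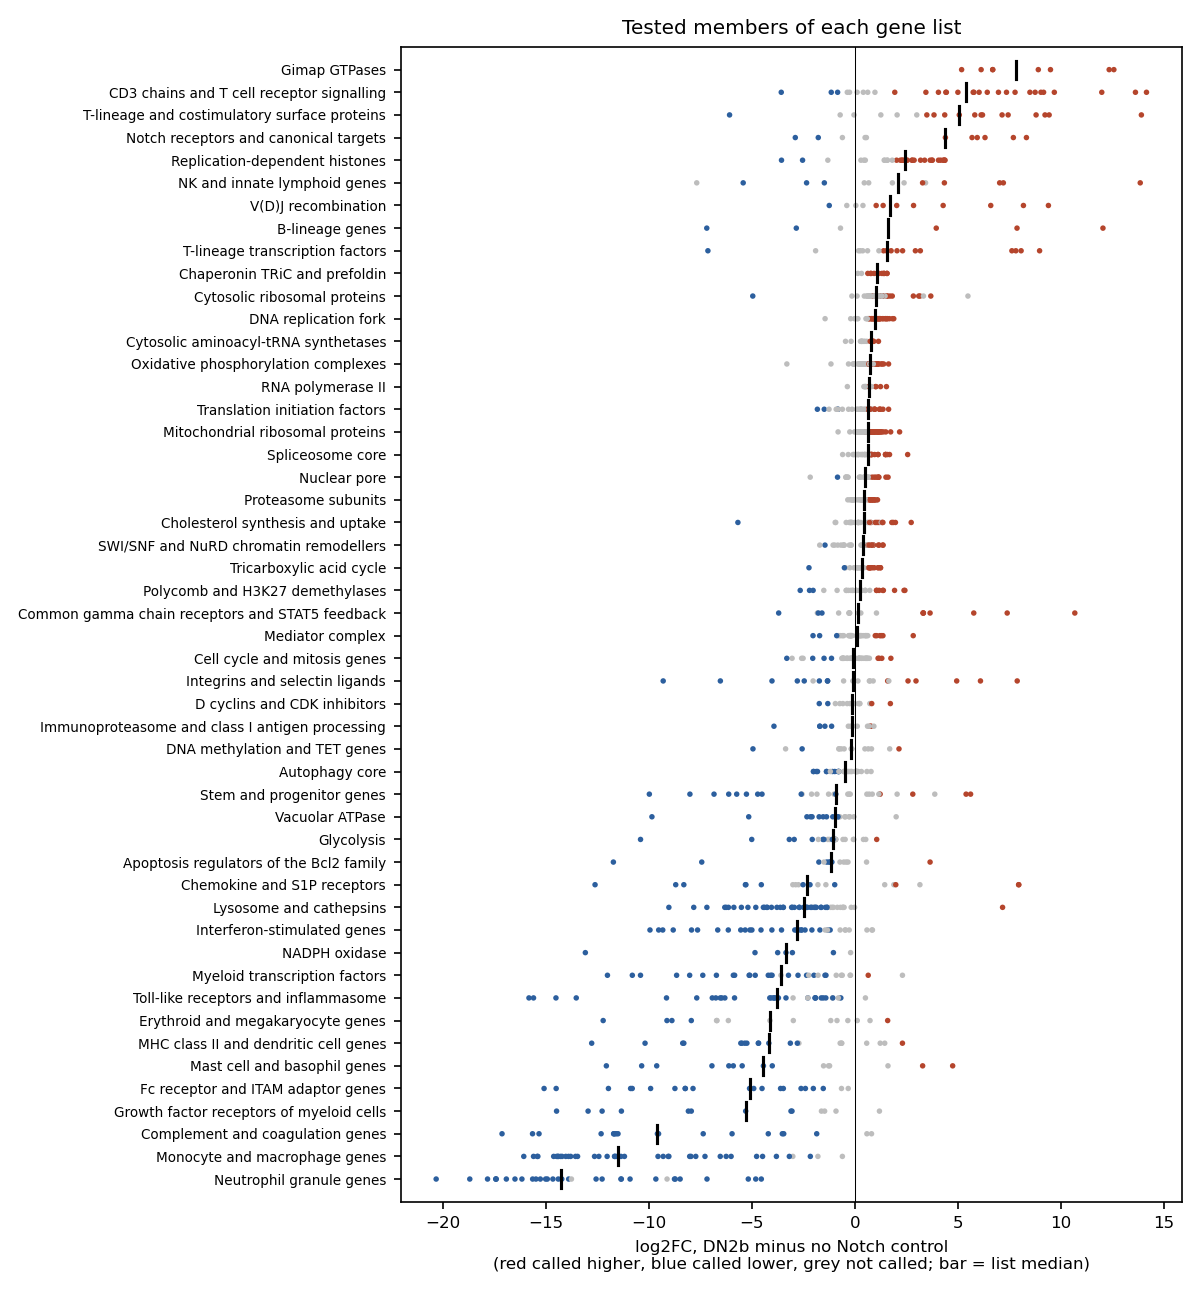
Each point is a tested member of 1 of the gene lists, placed at its log2FC of DN2b minus no Notch control, and bars are list medians. The lists run from a median of 7.80 (Gimap GTPases) to -14.24 (neutrophil granule genes).

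Interferon-stimulated genes were lower in 26 of 35 cases and higher in none, with a median log2FC of -2.80. *Irf7* had 7.74 and 13.4 CPM in DN2b against 298, 439, 69.7 and 184 CPM (log2FC -4.55, adjusted p = 0.00222), and *Oas2* had 3 and 1 counts against 18.7 to 35.7 CPM. Control library D2 had the highest value of the 4 for 31 of the 35. The interferon-gamma-inducible GTPases *Ifi47*, *Igtp* and *Gbp3* were not called, with log2FC of 0.83, 0.59 and 0.86. Without the first and the second DN2b library, 13 and 17 of the 35 were lower.

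Trafficking and survival genes differed in both directions. Of 20 chemokine and sphingosine phosphate receptors, 9 were lower and 3 higher. *Cxcr5* (12.0 and 68.8 CPM against at most 0.323, log2FC 7.96), *Ccr4* (8.21 and 8.92 CPM against 3 or fewer counts in each control library, ratio 303, counting interval 102 to 1477) and the sphingosine phosphate receptor *S1pr3* (log2FC 1.99) were higher, while *Ccr1* (0.334 and 2.23 CPM against 297 to 734, log2FC -8.69), *Cxcr2* (-4.54) and *Cxcr4* (106 and 168 CPM against 195 to 320, log2FC -0.97) were lower. *Ccr7* and *Ccr9* were not called. Among 23 integrins and selectin ligands, 6 were higher and 8 lower (against 19.9% and 22.5% of all genes tested), around a median log2FC of -0.09. Of these, 4 were lower without the first DN2b library, 2 were higher without the second, and 1 was higher against control libraries D1 and D2 alone. *Itgae*, the CD103 chain, was higher (50.7 and 125 CPM against at most 0.728, log2FC 7.89), *Itgam* (CD11b, log2FC -9.30) and *Itgb2* (-4.02) were lower, and *Itga4* and *Itgal* were within 2-fold. Of 15 genes of the Bcl2 family, *Bcl2* itself was the member called higher (110 and 132 CPM against 7.90 to 12.9, log2FC 3.66, SE 0.29, adjusted p = 4.64e-05), and 8 were lower, among them *Mcl1* (146 and 179 CPM against 459 to 652, log2FC -1.74) and *Bid* (-1.36). Without the first DN2b library 4 of the 15 were lower. *Bad* was within 2-fold. *Cxcr4* lost its call without the first DN2b library (adjusted p = 0.237). *S1pr3* lost its call without the second DN2b library (adjusted p = 0.116). *Cxcr4* also lost its call without control library D1, D2 or R1 (adjusted p from 0.0536 to 0.07).

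Of 42 cell cycle and mitosis genes, 4 were higher, 4 lower and 15 had an interval within 2-fold (35.7% of the list, against 17.3% of all genes, not matched for expression level), with a median log2FC of -0.09. *Cdk1* (167 and 110 CPM against 113 to 172, log2FC 0.04), *Ccnb1* (0.20) and *Cdt1* (0.18) were among the 15. Without the first DN2b library none of the 42 was higher and 4 were lower, and without the second 6 were higher and 1 was lower. *Mki67* showed a split between control libraries: it had 29.8 and 9.96 CPM in D1 and D2, 199 and 366 CPM in R1 and R2, and 15.9 and 20.7 CPM in DN2b, and was not called (adjusted p = 0.1). DNA replication fork genes were higher in 29 of 39 cases, with a median log2FC of 0.97 and none lower. The MCM helicase subunit *Mcm6* (997 and 614 CPM against 216 to 350, log2FC 1.49), the clamp loader subunit *Rfc4* (1.58) and *Rpa3* (1.68) were among them. Only 6 of the 39 were called without the first DN2b library, which had the higher value for most of them, and 28 without the second, while 15 were called against control libraries D1 and D2 alone and 19 against R1 and R2 alone. Of 14 tested genes of the cyclin D and CDK inhibitor list, 2 were higher, 2 lower and 10 not called. Among them, *Cdk4* was higher (932 and 752 CPM against 224 to 289, log2FC 1.73) and *Ccnd1* lower (-1.73). Replication-dependent histone genes were higher in 22 of 33 cases, with a median log2FC of 2.46, but took at most 0.0104% of gene reads in any of the 6 libraries. Of the 33, 13 were higher without the first DN2b library, 15 without the second and 11 against control libraries D1 and D2 alone. Their messages are known to lack a poly(A) tail, but the libraries are described as total RNA. The cause of the small read share was not tested. As near-identical copies, the histone genes have uncertain single values. *Ccnd1* lost its call without either DN2b library (adjusted p from 0.0719 to 0.262). *Ccnd1* also lost its call without control library D1 or R1 (adjusted p from 0.0641 to 0.0743).

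Of 25 glycolysis genes, 12 were lower and 1 higher, with a median log2FC of -1.06. Without the first and the second DN2b library, 4 and 6 were lower. *Hk3*, the hexokinase of myeloid cells, had 0.267 and 0.239 CPM against 265 to 410 CPM (log2FC -10.40), *Pfkfb4* (-3.18), *Pkm* (-1.06) and *Aldoa* (-1.50) were lower, while *Ldha* stayed within 2-fold (1707 and 1525 CPM against 1286 to 2345, log2FC -0.05). The lactate exporter *Slc16a3* was lower (0.534 and 12.9 CPM against 131 to 324) and the related *Slc16a1* higher (1.06). Of 72 genes of the oxidative phosphorylation complexes 33 were higher and none lower (median log2FC 0.72), of 25 tricarboxylic acid cycle genes 11 were higher and 2 lower (0.37), and of 77 mitochondrial ribosomal proteins 37 were higher and none lower (0.62). In these 3 lists, 18, 12 and 24 members had intervals within 2-fold. *Idh1*, the cytosolic enzyme, was lower (26.4 and 47.8 CPM against 145 to 209, log2FC -2.22), and *Idh3a* of the mitochondrial enzyme was higher by 1.15. Without the first DN2b library 7, 1 and 13 members of the 3 lists were higher, where 1318 of all 12221 genes were, and without the second 23, 7 and 33. Against control libraries D1 and D2 alone 15, 3 and 17 were higher, and against R1 and R2 alone 51, 8 and 42. Of 30 cholesterol genes, 11 were higher and 1 lower: *Idi1* (572 and 612 CPM against 62.6 to 121, log2FC 2.74), *Cyp51* (1.86) and *Lss* (1.80) were higher, and the exporter *Abca1* lower (-5.68). Of the 30, 6 were higher without the first DN2b library, 4 without the second and 6 against control libraries D1 and D2 alone. *Pkm* and *Aldoa* lost their calls without either DN2b library (adjusted p from 0.0558 to 0.19). *Slc16a3*, *Slc16a1*, *Idh3a* and *Abca1* lost their calls without the first DN2b library (adjusted p from 0.0509 to 0.182). *Slc16a1* also lost its call without control library D1 or R1 (adjusted p from 0.0555 to 0.063).

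The following complexes of protein synthesis and turnover had median log2FC between 0.47 and 1.07. The chaperonin TRiC and prefoldin had 11 of 13 members higher, with *Tcp1* at 1112 and 942 CPM against 302 to 414 CPM (log2FC 1.57, adjusted p = 0.00285). Aminoacyl-tRNA synthetases were higher in 11 of 20 cases, core spliceosome genes in 16 of 36, led by *Snrpf* (210 and 220 CPM against 26.4 to 41.5, log2FC 2.57), and proteasome subunits in 15 of 35, with none lower in these lists. Of 41 translation initiation factors, 17 were higher and 4 lower. Without the first DN2b library 5, 0, 4, 0 and 3 members of the 5 lists were higher, and without the second 8, 5, 15, 11 and 9. Against control libraries D1 and D2 alone 5, 5, 9, 0 and 0 were higher, and against R1 and R2 alone 12, 8, 14, 16 and 18. The 85 tested cytosolic ribosomal protein genes had a median log2FC of 1.04, and 24 were called higher and 1 lower, against 7 and 4 higher without the first and the second DN2b library. They took 18.1% and 21.6% of gene reads in DN2b, and 6.27%, 15.1%, 6.19% and 7.41% in control libraries D1, D2, R1 and R2. Against R1 and R2 alone, 79 of the 85 were higher, and against D1 and D2 alone 4 were. Many ribosomal protein genes have processed pseudogenes, and reads that aligned to more than 1 place (30.1% in the second DN2b library, 16.4% to 22.5% in the others compared) were assigned to no gene. The list of immunoproteasome and class I antigen processing genes differed from these complexes, with 2 of 14 members higher, 5 lower and a median log2FC of -0.15.

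Some programmes had many members whose interval lay inside the 2-fold bound. Mediator had 14 of 33 members there (median log2FC 0.10), the proteasome 17 of 35, the tricarboxylic acid cycle 12 of 25, autophagy 12 of 31, nuclear pore 9 of 26 and core spliceosome 12 of 36, each at or above 33.3% against 17.3% of all genes. The share over all genes was not matched for expression level, on which the width of an interval also depends. *Psmc3* (249 and 178 CPM against 177 to 253, log2FC 0.02), *Med23* (38.0 and 33.8 CPM against 30.1 to 37.0, log2FC 0.10), *Becn1* (0.16) and *Pik3c3* (0.04) are examples. The rest of these lists was not all unchanged, since 15 proteasome subunits, 11 tricarboxylic acid cycle genes and 8 nuclear pore genes were called higher (3 of the nuclear pore without the first DN2b library). Of the 31 autophagy genes, 11 were called lower and none higher, and 2 and 3 were lower without the first and the second DN2b library. Among genes with a mean of at least 100 CPM, the narrowest such intervals belonged to *Lsm14a* (157 and 157 CPM against 124 to 139), *Cul3* (136 and 126 CPM against 117 to 125, interval -0.28 to 0.47), *Vapa*, *Dlst*, *Hadha*, *Was*, *Pdcd6* and *Snrnp200*. Of these *Dlst* was nevertheless called, at a log2FC of -0.50. Chromatin regulators had both kinds of members. Of 28 Polycomb and H3K27 demethylase genes 8 were higher, 3 lower and 4 within 2-fold, and of 28 SWI/SNF and NuRD genes 10 were higher, 1 lower and 4 within 2-fold. Of all genes tested, 19.9% were higher, 22.5% lower and 17.3% within 2-fold. Without the first DN2b library 4 members of each list were higher, and against control libraries R1 and R2 alone 8 SWI/SNF and NuRD genes were higher and 7 lower. *Ezh2*, the H3K27 methyltransferase, was higher (150 and 101 CPM against 48.5 to 88.6, log2FC 1.05), as were *Pcgf6* (2.39) and *Cbx2* (2.43), and *Suz12* was within 2-fold. *Kdm6b* was lower (-2.20), and its control values were 24.0 and 27.3 CPM in D1 and D2 and 65.0 and 68.1 CPM in R1 and R2. Of the DNA methylation genes, *Dnmt3b* was higher (2.15), *Dnmt3l* and *Tet3* were lower, and *Dnmt1* was not called. *Dlst* lost its call without either DN2b library (adjusted p from 0.113 to 0.224). *Ezh2*, *Kdm6b*, *Dnmt3b*, *Dnmt3l* and *Tet3* lost their calls without the first DN2b library (adjusted p from 0.0788 to 0.153). *Dlst* also lost its call without control library D1, R1 or R2 (adjusted p from 0.0575 to 0.101).

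**Figure D4:**
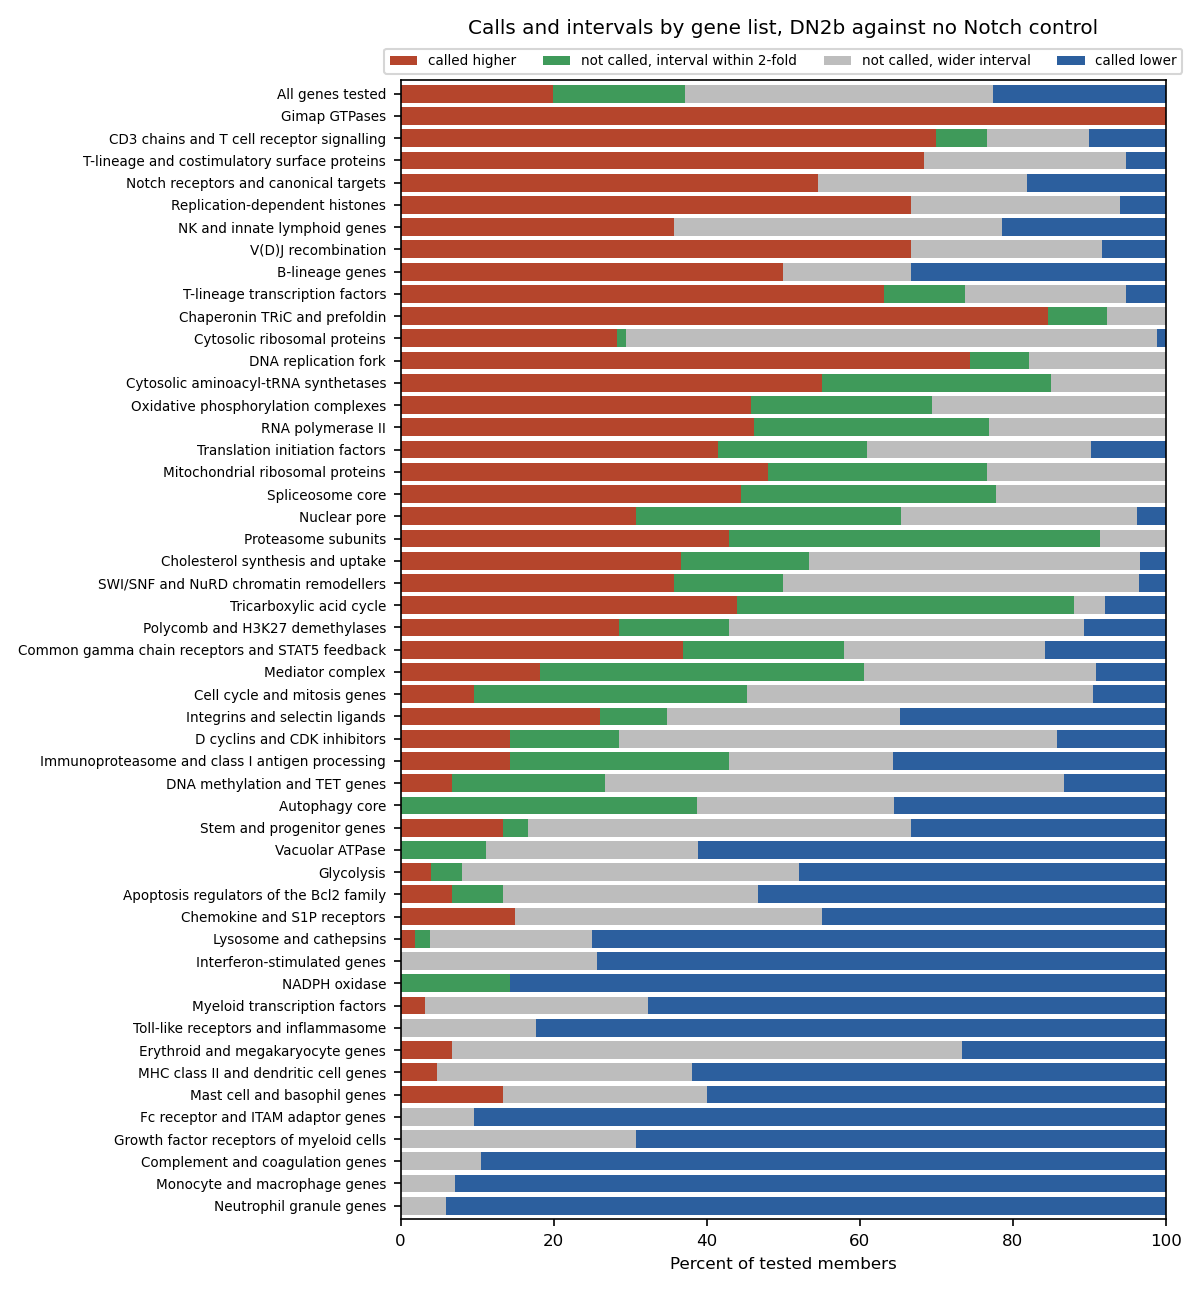
Bars give, for each gene list, the percentage of tested members called higher, not called with an interval within 2-fold, not called with a wider interval, and called lower in DN2b, with all 12221 genes in the top bar for reference. The Gimap and CD3 lists are mostly higher, the neutrophil and macrophage lists mostly lower, and the proteasome, the tricarboxylic acid cycle and Mediator have the widest bands within 2-fold.

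The largest differences in abundance, rather than in fold, came from few genes. *Eef1a1*, the elongation factor that carries tRNA to the ribosome, had 27776 and 26380 CPM in DN2b and 9634, 17353, 7152 and 6508 CPM in the control (log2FC 1.41, adjusted p = 0.0357). *Gzma*, *Gnb2l1* (the ribosomal scaffold RACK1), 6 ribosomal protein genes and *Ifitm1* completed the 10 genes with the largest gain in mean CPM, and the 9 other than *Gzma* were not called without either DN2b library. In the other direction stood *Ftl1* and *Fth1*, the ferritin chains, with 1680 and 1264 and 1630 and 1522 CPM in DN2b against 6457 to 24141 and 3487 to 24151 CPM in the control, followed by *S100a9*, *Lyz2* (4.54 and 2.39 CPM against 6214 to 13136), *Ctsb*, *Psap*, *Ctsd*, *Spp1*, *Ngp* and *S100a8*. *Lyz2* and its neighbour *Lyz1* are similar in sequence and uncertain. Lysosomal genes took 0.331% and 0.420% of gene reads in DN2b and between 2.49% and 8.70% in the control. *Eef1a1* and *Gnb2l1* also lost their calls without control library D1, R1 or R2, and *Ifitm1* without R1 or R2 (adjusted p from 0.0514 to 0.0925, edgeR's quasi-likelihood test). *Fth1* and *Ctsd* lost their calls without either DN2b library (adjusted p from 0.0546 to 0.102).

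**Figure D5:**
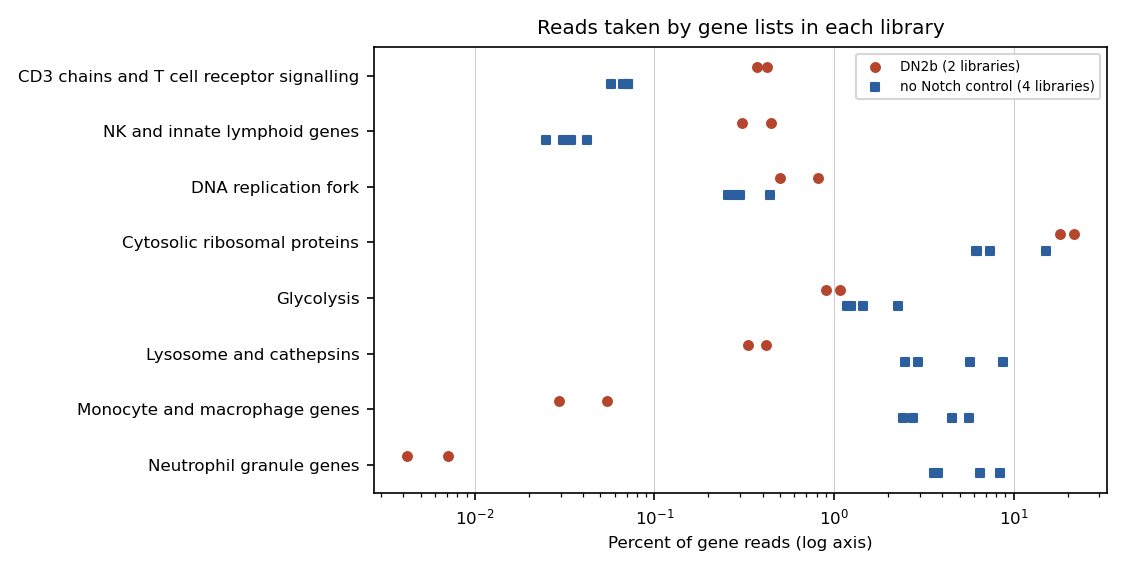
Percent of all gene reads taken by 8 gene lists in each DN2b library and each no Notch control library, on a log axis. Neutrophil, macrophage and lysosome lists take smaller shares in DN2b and the CD3 and T cell receptor list larger ones, while ribosomal protein reads in control library D2 (15.1%) lie near those of DN2b.

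By fold, the genes with the largest differences included some that belong to none of these lists. *Khdc1a*, a KH domain gene, had 339 and 184 CPM in DN2b and 0 counts in all 4 control libraries, at least 1558-fold higher. *Psg17*, of the pregnancy-specific glycoprotein family, and *Vat1l* were likewise absent from the control (at least 355-fold and 252-fold higher). *Rpl14-ps1*, a processed pseudogene that can share reads with its parent, had 626 and 835 CPM against at most 0.147 CPM. *Esm1* (126 and 12.3 CPM, 0 in the control) and *2300002M23Rik* (3.07 and 127 CPM, 0 in the control) differed about 10-fold and 41-fold between the DN2b libraries, and each belongs to no list here. On the other side, *C3ar1*, *Hp*, *Ms4a3* and *Gda* were at 0 in DN2b, and *Hp*, haptoglobin, was at least 3794-fold lower. *2300002M23Rik* lost its call without the second DN2b library (adjusted p = 0.12).

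DN2b was also set beside DN1 (KIT++CD44+CD25-), cells sorted from the same ligand without IL-7 and with 2 libraries. Of the 12221 genes, 233 (1.91%) differed between DN2b and DN1, 124 higher and 109 lower. This count depended on single libraries: it was 68 and 50 without the first and the second DN2b library, 56 and 385 without the first and the second DN1 library, 112 and 123 without a DN2a library, and 152 without control library R1. DESeq2 called 822. *Cd3g* was at 63.2 CPM on average in DN1 and was called higher in DN2b over DN1 (log2FC 4.68, adjusted p = 0.00704), as were *Cd3e* (5.98), *Cd247* (6.48), *Ctla4* (5.37), *Bcl2* (3.58) and *Socs2* (7.27). *Bcl11b* (log2FC 3.66), *Gata3* (1.76) and *Ets1* (2.42) were called higher as well, but not once any 1 of the DN2b or DN1 libraries was left out (adjusted p from 0.0527 to 0.269). *Spi1* was lower than in DN1 too (-2.68, adjusted p = 0.0034). *Hes1* (log2FC 0.23), *Dtx1* (0.36) and *Nrarp* (-0.46) were not called between DN2b and DN1, where few genes of any kind were. *Gzmb* had a higher mean in DN1 than in DN2b, and its difference from DN2b was not called (log2FC -3.43, adjusted p = 0.0991). *Ets1* was higher than in the no Notch control by 1.40. *Ets1* lost its call without the second DN2b library (adjusted p = 0.0869).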

How the data were processed

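Total RNA of 10 libraries was sequenced (TruSeq Stranded Total RNA). The authors removed reads that failed the Illumina filter, aligned the first 36 bases of read 1 to mm10 with TopHat and counted reads per gene symbol with htseq-count (intersection-strict). The deposited values are those raw counts, 24062 gene rows per library. The 5 summary lines per library (reads with no feature, ambiguous or multimapped among them) were left out. The annotation and the strand setting are not given in the sources used here, so overlapping and antisense genes are uncertain.

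Libraries were grouped by the differentiation label. Genes reaching 1 CPM in 2 or more libraries (12221) were fitted over all 10 libraries, with TMM normalization, by edgeR 4.0.16's quasi-likelihood test in R 4.3.3, and p-values were adjusted by Benjamini-Hochberg over all of them. Intervals are 95% intervals of the log2FC, and counting intervals and floors cover counting error only. DESeq2 1.42.0, other filters and scalings, either control pair and each library left out in turn were alternatives. The label dates of DN1, DN2a and DN2b fall in 2 sets, taken here as experiments, and the authors sorted all 3 stages from each LSK isolate. Deviations from the group means correlated across genes at 0.287 between DN2b and DN1 of the same set, 0.27 between DN2b and DN2a and 0.0842 between DN1 and DN2a, so that the pairing is uncertain, and a fit of DN2b against DN1 with the experiment as a block was added after seeing the data, as were its other alternatives. Scripts were tested on simulated counts. Members and gene lists were chosen with earlier results of these data known. CPM is not per length, so levels are compared between libraries, not genes.

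Genes in the text were drawn from those a rule gave: the 12 highest and 12 lowest log2FC among called genes without overlap and a mean of 5 CPM or more where higher, the 10 largest differences in mean CPM in each direction, up to 4 called members in each direction and 3 with the tightest interval within 2-fold from each list, defining markers, and the 8 narrowest intervals at a mean of at least 100 CPM. Of the genes in the text, 99 fall outside the rule and were chosen after their values were seen: *Ckm*, *Col4a1*, *Fn1*, *Nrarp*, *Notch1*, *Rbpj*, *Myc*, *Hey1*, *Satb1*, *Sox4*, *Bach2*, *Tcf12*, *Patz1*, *Ikzf2*, *Cd3d*, *Cd247*, *Lck*, *Txk*, *Prkcq*, *Fyn*, *Zap70*, *Lat*, *Grap2*, *Lcp2*, *Cd7*, *Cd27*, *Cd28*, *Cd4*, *Cd8a*, *Cd8b1*, *Gimap9*, *Gimap1*, *Xrcc6*, *Lig4*, *Prkdc*, *Xrcc4*, *Nhej1*, *Jak3*, *Cish*, *Socs1*, *Il7r*, *Gzmc*, *Tbx21*, *Zbtb16*, *Hdc*, *Lmo2*, *Mef2c*, *Flt3*, *Meis1*, *Bcl11a*, *Cd34*, *Stfa1*, *Itgb2l*, *Stfa2*, *Stfa3*, *Mpeg1*, *Ccr2*, *Cx3cr1*, *Axl*, *Spi1*, *Cebpd*, *Cebpb*, *Irf8*, *Egr1*, *Fosb*, *Jun*, *Csf2rb*, *Tyrobp*, *Lyn*, *Hcst*, *Btk*, *Tlr2*, *Myd88*, *Traf6*, *Cyba*, *Rac2*, *F13a1*, *H2-Aa*, *Cd74*, *Irf7*, *Oas2*, *Ifi47*, *Igtp*, *Gbp3*, *Cxcr2*, *Cxcr4*, *Ccr7*, *Ccr9*, *Cdk1*, *Ccnb1*, *Mki67*, *Mcm6*, *Pkm*, *Aldoa*, *Psmc3*, *Ezh2*, *Dnmt1*, *Lyz1* and *Ets1*. RefSeq promoter windows (GRCm38.p6) covered 79.9% of the genes tested, under 80%, so motifs were not compared between gene sets. Some genes are not reported here.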

Additional observations from a re-analysis of the deposited data

Results flagged for a closer look

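In the 4 control libraries, 17 of the 258 tested genes named in the text had 1 library far from the other 3, its gap to the nearest taking a larger part of the whole range of log2(CPM + 0.5) than Dixon's 95% critical value. Chance alone flags about 1 in 20 groups, and the number here is near that. Control library D1 stood apart for *Gimap4* at 0.056 CPM, *Hey1* at 2.47 CPM, *Itgal* at 145.0 CPM, *Pou2af1* at 0.056 CPM and *Stfa1* at 311.0 CPM. Control library D2 stood apart for *Btk* at 65.6 CPM, *Ckm* at 0.138 CPM, *Ctla4* at 0.0461 CPM, *H2-Oa* at 15.9 CPM, *Heyl* at 0.0461 CPM, *Mcpt8* at 68.5 CPM and *Notch3* at 0.507 CPM. Control library R1 stood apart for *Cd247* at 0.294 CPM and *Trat1* at 0.0587 CPM. Control library R2 stood apart for *Ezh2* at 88.6 CPM, *Runx1* at 83.0 CPM and *Slc16a1* at 145.0 CPM. For *Ckm*, *Ctla4*, *Gimap4*, *Heyl*, *Pou2af1* and *Trat1* the other 3 libraries had 0 counts, so that at most 3 reads in 1 library set it apart.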

How the results depend on the processing

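Leaving out 1 library at a time, genes called higher numbered from 1318 to 2729, genes called lower from 1380 to 2959, and genes with an interval within 2-fold from 915 to 2188. The lowest counts came without a DN2b library: 1318 higher and 1380 lower without the first, 1661 and 1835 without the second. Genes within 2-fold numbered 1109 without the first and 915 without the second. Against control libraries D1 and D2 only, 1301 genes were called higher and 1937 lower, and against R1 and R2 only 2465 and 2770. The cause was not tested. No gene named in the text changed sign with a call on either side, and of 196 called, 144 were called under every alternative run. Between DN2b and DN1, genes called numbered from 50 to 385 when 1 library was left out and 822 with DESeq2. With the replicate block by experiment, 254 genes were called against 233 without it, 206 of them in both fits. The control carries no date, so no pairing of DN2b with it was possible. With 2 DN2b libraries, leaving out 1 leaves a lone sample assumed to vary like the other groups.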
